A study of Homo sapiens with 12 samples.

Results

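The genes described here are the 10 members of the pro-apoptotic arm of the BCL2 family: the 8 genes of the BH3-only proteins BBC3, PMAIP1, HRK, BCL2L11, BIK, BMF, BID and BAD, and the 2 genes of the pore-forming effectors BAX and BAK1. They were taken by gene name from a table of 32077 genes, and all 10 were found there, each once. RNA-seq libraries labelled as PC3 and DU145, both long-established lines from human prostate carcinoma and independent of androgen, were compared after 48 hours in medium with 2.5 μmol/L pentamidine, an antiparasitic diamidine, or with vehicle. Each of the 4 groups (PC3 vehicle, PC3 pentamidine, DU145 vehicle and DU145 pentamidine) held 3 samples, and both lines carry the label wild type for genotype. Each line is a single line, and the labels do not say whether the samples of a group came from separate cultures, so a p-value measures only the spread between these samples, which may be technical.

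BH3-only proteins carry death signals to mitochondria. They bind the antiapoptotic proteins of the BCL2 family, and some of them also act directly on BAX and BAK1, which then assemble into pores in the outer mitochondrial membrane and let cytochrome c escape. Members of the group differ in how they are switched on: BBC3 (PUMA), PMAIP1 (NOXA), HRK and BCL2L11 (BIM) are known for control of their transcription, whereas BID is cut by caspases and BAD is held by phosphorylation, steps that mRNA counts do not show.

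Total counts ranged from 13514195 to 15131436 per sample, and the share of counts on the protein-coding genes of mitochondrial DNA, which moved with treatment under both labels, was between 3.35% and 4.04% in the vehicle groups and between 0.205% and 0.257% in the pentamidine groups. Recomputing the scaling without any mitochondria-encoded gene changed the call of no member in any comparison. The labels themselves did not pass a check against marker genes. EPCAM and KRT19, markers of epithelial carcinoma, had at most 2 and 3 counts in any of the 12 libraries, and CDH1 (E-cadherin) had at most 1 in the PC3-labelled and 10 in the DU145-labelled ones. CTNNA1 (alpha-catenin), of which PC3 is known to have lost at least a part in both copies, was counted in every PC3-labelled library, with 6003 to 8545 counts against 5533 to 5932 in the DU145-labelled libraries. Counts per gene do not show which exons were read. KRT8 and KRT18, keratins of simple epithelia, were the other pair of epithelial markers examined: KRT8 had 238 to 307 counts in the PC3-labelled libraries and 25835 to 38812 in the DU145-labelled ones, and KRT18 had 2125 to 3085 and 9962 to 13423. VIM (vimentin), which was added after its values were seen, had 4184 to 6679 counts over all libraries. The 3 androgen-responsive prostate markers at hand summed to between 6.35 and 19.1 CPM (counts scaled to a common library size), and lists of fibroblast, immune and endothelial markers summed to at most 3.06, 0.427 and 1.15 CPM. Therefore the groups are named below only by their labels, and what the cells were was not tested further.

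**Figure D1:**
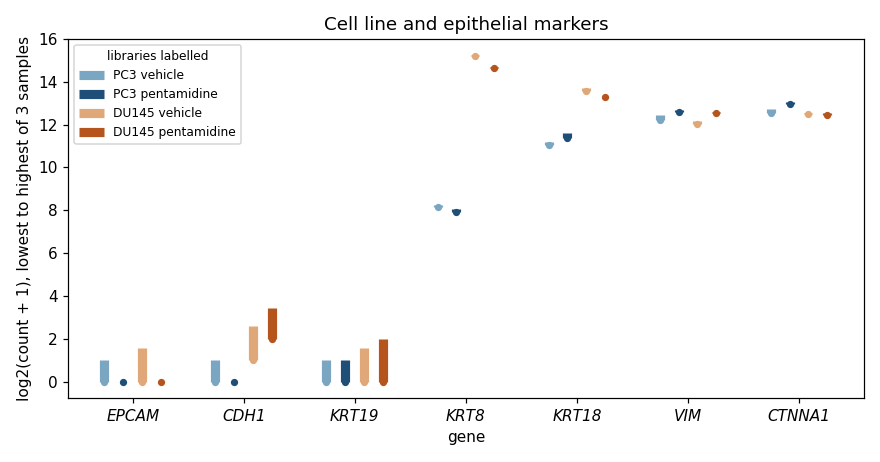
Counts of epithelial and cell line markers in the 4 groups, as log2(count + 1); each bar runs from the lowest to the highest of 3 samples and a dot marks the lowest. EPCAM, CDH1 and KRT19 lie at or near 0 in all groups, KRT8 separates the labels, and CTNNA1 is counted under both labels.

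The start regions of 3 members are shown, picked with the results known. BBC3 and PMAIP1 rose under both labels, and HRK was higher with pentamidine at low counts. Each region holds a motif of a factor family known to act on stress-induced genes. BAX and BAD, whose responses to pentamidine did not pass a test, hold such matches as well. The sequences are those of RefSeq (GRCh38.p14), read 5′ to 3′ on the strand of the gene, limited to bases that lie outside every annotated transcript. Capitals mark the motif match, and distances are counted from the RefSeq start used. For PMAIP1 and BBC3 this start lies inside the gene position given below, so the match is nearer to the first base of the gene. The HRK sequence is chr12:116881442-116881691 on the minus strand, with the CEBP-ATF composite motif TGATGNAA 75 bases before the start. The PMAIP1 sequence is chr18:59899746-59899947 on the plus strand, with the CRE core TGACGT on the other strand 56 bases before the start. The BBC3 sequence is chr19:47232861-47232917 on the minus strand, with the E-box CACGTG 232 bases before the start.
HRK: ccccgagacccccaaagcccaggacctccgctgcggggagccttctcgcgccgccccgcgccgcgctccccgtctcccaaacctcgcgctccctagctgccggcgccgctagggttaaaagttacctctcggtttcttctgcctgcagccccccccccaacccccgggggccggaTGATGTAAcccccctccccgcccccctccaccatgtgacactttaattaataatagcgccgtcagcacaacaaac
PMAIP1: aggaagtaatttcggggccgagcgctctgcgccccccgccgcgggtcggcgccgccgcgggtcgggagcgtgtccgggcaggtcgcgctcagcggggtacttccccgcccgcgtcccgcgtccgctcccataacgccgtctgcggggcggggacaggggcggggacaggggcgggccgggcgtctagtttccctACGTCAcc
BBC3: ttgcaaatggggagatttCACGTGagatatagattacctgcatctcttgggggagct

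Windows of 300 bases (250 of them before the start) were at hand for 9 of the 10 members, and BIK had none. On either strand, TGATGNAA was present in 3.62% of all 35116 windows, TGACGT in 7.98%, CACGTG in 7.26% and the forkhead motif TGTTTAC in 3.42%. Among the other members, BAX had 4 matches to CACGTG, and BCL2L11 had a TGTTTAC match on the other strand 223 bases before the start. BID had 1 CACGTG site and BAD 1 TGACGT site, each seen in 2 overlapping windows. The starts behind the BCL2L11, BID and BAX matches lie inside the gene positions given below. So do the BCL2L11 and BID matches, and the BAX matches 45 and 14 bases before the start. BMF and BAK1 had no match to any of the 4 motifs in their windows. No match of one motif overlapped a match of another. A match describes letters only, and the motifs were picked with the results known.

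Before treatment, PMAIP1, BAX, BAK1 and BID were the highest members under both labels. Levels were compared between genes as CPM per kb of annotated exon. The order depends on this length, which need not be that of the transcripts present. In CPM alone, the PC3 vehicle samples of BAX (mean 63.3) and PMAIP1 (mean 61.8) overlapped, and BID (43.5) was above BAK1 (31.5). In the PC3 vehicle group PMAIP1 was highest at 27.7 ± 0.770 CPM per kb (SD, n = 3), followed by BAX at 24.5 ± 1.98, BAK1 at 14.3 ± 0.517 and BID at 9.78 ± 0.291, with no overlap between neighbours. BAD at 3.48 ± 0.930 and BCL2L11 at 2.89 ± 0.494 overlapped, and BBC3 lay under them at 1.04 ± 0.124. In the DU145 vehicle group BAX came highest at 28.7 ± 1.52, and BAK1 at 16.5 ± 0.359 and PMAIP1 at 16.4 ± 0.415 overlapped, followed by BID at 9.09 ± 0.315, BAD at 4.45 ± 0.661, BCL2L11 at 2.33 ± 0.0467 and BBC3 at 0.643 ± 0.192. HRK, BIK and BMF were the lowest of the 10 in both vehicle groups, the highest of them BIK in DU145 vehicle at 0.420 ± 0.101 CPM per kb, which overlapped with BBC3.

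Between the vehicle groups, 6 of the 8 members tested differed at an adjusted p below 0.05 (quasi-likelihood test of edgeR, Benjamini-Hochberg over all genes), where 65.3% of all genes tested did. Of these members 3 were higher and 3 lower under the PC3 label, against 31.5% and 33.8% of all genes, and 1 passed a log2 difference of 1 in size, against 19.2%. Samples of the vehicle groups did not overlap for 7 of the 8, against 69.1% of all genes. PMAIP1 was higher in the PC3-labelled cells by 0.73 on the log2 scale (SE 0.062, adjusted p 2.8e-08), as were BBC3 by 0.67 (SE 0.24, adjusted p 0.025) and BCL2L11 by 0.29 (SE 0.12, adjusted p 0.042). The effectors were lower in the PC3-labelled cells: BAX had a log2 difference of -0.26 (SE 0.068, adjusted p 0.0033) and BAK1 one of -0.23 (SE 0.070, adjusted p 0.0080). With limma on log2(CPM + 1) neither passed (-0.17 and -0.15, adjusted p 0.085 and 0.056), nor did BAK1 with scaling by library size alone (-0.15, adjusted p 0.064). BMF had a log2 difference of -2.20 (SE 0.43, adjusted p 0.00026), but it passed the filter on low counts only through the DU145 group, with 3 to 6 counts against 15 to 26, so that it had to differ. Without it 5 of 7 members differed, none of them by more than 1, and 6 of 7 did not overlap. HRK and BIK were removed by the filter. BID had a difference of 0.081 (95% interval -0.058 to 0.22) and BAD one of -0.38 (95% interval -0.78 to 0.025). The BBC3 difference did not pass without PC3 vehicle replicate 2 (0.61, adjusted p 0.079) or DU145 vehicle replicate 1 (0.45, adjusted p 0.13). That of BCL2L11 did not pass without PC3 vehicle replicate 2 (0.15, adjusted p 0.26) or without any of DU145 vehicle replicates 1, 2 and 3 (adjusted p 0.10, 0.10 and 0.073), and with DESeq2 neither passed (adjusted p 0.058 for BBC3 and 0.063 for BCL2L11).

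The next question was which members responded to pentamidine. In the PC3-labelled libraries 3 of the 7 members tested changed (43.4% of all genes tested were called), BBC3 and PMAIP1 upwards and BID downwards (21.7% of all genes rose and 21.7% fell). In the DU145-labelled libraries 6 of the 9 members tested changed (34.0% of all genes tested were called), BBC3, PMAIP1, HRK and BCL2L11 upwards and BID and BAK1 downwards (17.2% of all genes rose and 16.8% fell). HRK was tested there only because its pentamidine samples passed the filter, so that it had to differ, and without it 5 of 8 members changed, 3 upwards and 2 downwards. A log2 fold change above 1 in size was reached by 1 member in the PC3-labelled libraries (BBC3, 4.75% of all genes) and by 2 in the DU145-labelled ones (BBC3 and HRK, 2.03% of all genes), or by 1 of 8 without HRK. The median log2 fold change was 0.095 over the 7 members and 0.30 over the 9 (0.29 without HRK), against 0.0046 and 0.0085 over all genes tested. The vehicle and pentamidine samples did not overlap for 4 of the 7 and 5 of the 9 members (4 of 8 without HRK), and for 52.1% and 44.0% of all genes. In bulk RNA, a change in the number of cells of a kind and a change in the RNA of each cell cannot be told apart.

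**Figure D2:**
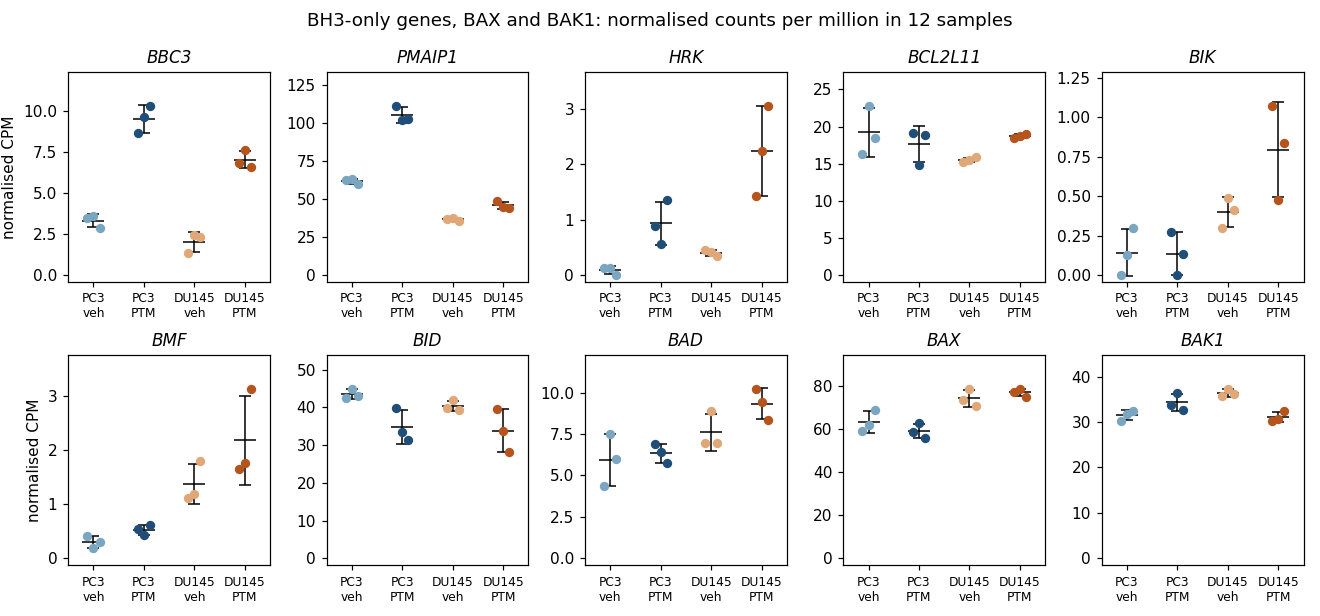
Normalised CPM of the 10 members in each of the 12 samples (points), with the group mean and SD (bars, n = 3); veh is vehicle and PTM is pentamidine, and each panel has its own scale from 0. BBC3 and PMAIP1 stand higher with pentamidine under both labels, HRK does so at low counts, and BAX stays within 55.9 to 78.5 CPM.

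BBC3 (ENSG00000105327, chr19:47220822-47232766, minus strand, GRCh38) encodes PUMA, a BH3-only protein that binds all the main antiapoptotic members. It was counted at 3.46, 3.63 and 2.88 normalised CPM in the 3 PC3 vehicle samples and at 8.65, 9.68 and 10.3 in the 3 PC3 pentamidine samples. In the DU145-labelled cells it was at 1.34, 2.45 and 2.34 CPM with vehicle and 6.86, 7.61 and 6.61 CPM with pentamidine. Every pentamidine sample was above every vehicle sample under both labels. BBC3 rose by 1.52 on the log2 scale in the PC3-labelled libraries (SE 0.16, 95% interval 1.19 to 1.86, adjusted p 6.9e-07, edgeR) and by 1.77 in the DU145-labelled ones (SE 0.20, 95% interval 1.37 to 2.17, adjusted p 2.2e-10, edgeR). The ratio of the summed counts, scaled to library size, was 2.86 and 3.41. The difference between the responses, taken as PC3 minus DU145, was -0.25 with a 95% interval from -0.79 to 0.29 (adjusted p 0.57), so a difference of either sign was not detectable at these counts of 18 to 153 per sample. Leaving out 1 sample moved it between -0.39 (DU145 vehicle replicate 2) and -0.024 (DU145 vehicle replicate 1).

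PMAIP1 (ENSG00000141682, chr18:59899948-59904306, plus strand) encodes NOXA, which binds mainly the antiapoptotic protein MCL1. Its level went from 62.4, 63.2 and 59.9 CPM with vehicle to 112, 102 and 103 CPM with pentamidine in the PC3-labelled libraries. Under the DU145 label it went from 36.9, 37.5 and 35.7 CPM to 48.7, 45.0 and 44.0 CPM. The groups did not overlap under either label, and the lowest PC3 vehicle sample was above the highest DU145 pentamidine sample. PMAIP1 rose by 0.78 in the PC3-labelled libraries (log2, SE 0.059, adjusted p 1.2e-08, edgeR) and by 0.33 in the DU145-labelled libraries (log2, SE 0.062, adjusted p 3.1e-05, edgeR). The rise was larger under the PC3 label by 0.45 on the log2 scale (SE 0.083, 95% interval 0.28 to 0.62, adjusted p 0.00019, edgeR interaction term). It was 1 of 2 members of the 9 tested whose responses differed between the labels, where 20.4% of all genes tested did, and neither passed 1 in size, as 2.62% of all genes did.

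HRK (ENSG00000135116, chr12:116856144-116881441, minus strand) encodes Harakiri, a BH3-only protein best known from neurons. It was counted 2, 2 and 0 times in the PC3 vehicle samples and 13, 8 and 20 times in the PC3 pentamidine samples. Under the DU145 label HRK had 6, 6 and 5 counts with vehicle and 20, 33 and 44 counts with pentamidine. All pentamidine samples had more counts than any vehicle sample of the same label, although every value was low. In the PC3-labelled libraries the filter on low counts removed HRK. Its summed counts there, 4 and 41, gave a ratio of 10.3 with a 95% interval of 3.72 to 39.5 that covers counting error only. Without the filter its log2 fold change in these libraries was 3.24 (SE 0.68, adjusted p 2.3e-05, edgeR). In the DU145-labelled libraries HRK rose by 2.46 on the log2 scale (SE 0.39, 95% interval 1.68 to 3.24, adjusted p 1.0e-06, edgeR), where it passed the filter only through the pentamidine group. With limma on log2(CPM + 1), a scale that understates changes of low counts, the log2 fold change was 1.20 (adjusted p 0.0078), and a filter of 10 counts in every sample removed the gene. The ratio of the summed counts was 5.59, with a counting interval of 3.32 to 9.98. The responses under the labels differed by 0.79 with a 95% interval from -0.95 to 2.53 (adjusted p 0.58), and leaving out 1 sample moved it between 0.30 (PC3 vehicle replicate 3) and 1.16 (PC3 vehicle replicate 1).

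BCL2L11 (ENSG00000153094, chr2:111119378-111168447, plus strand) encodes BIM, which binds the antiapoptotic members and can act on BAX and BAK1 directly. The PC3-labelled libraries had it at 16.3, 22.8 and 18.5 CPM with vehicle and 19.1, 14.9 and 18.9 CPM with pentamidine. The DU145-labelled libraries had it at 15.2, 15.5 and 15.8 CPM with vehicle and 18.5, 18.7 and 19.1 CPM with pentamidine. The groups overlapped under the PC3 label and did not overlap under the DU145 label. BCL2L11 rose by 0.28 in the DU145-labelled libraries (log2, SE 0.092, adjusted p 0.016, edgeR). This call was not kept by DESeq2 (0.27, adjusted p 0.058), in a fit of all 12 samples (0.27, adjusted p 0.076), or without DU145 vehicle replicate 1 (0.26, adjusted p 0.0504) or DU145 pentamidine replicate 3 (0.26, adjusted p 0.0502), although the size of the change stayed close to 0.28. In the PC3-labelled libraries the log2 fold change was -0.12 (95% interval -0.39 to 0.15, adjusted p 0.47), and without PC3 vehicle replicate 2 it was 0.023. The difference of the responses, -0.40 (95% interval -0.72 to -0.078), did not pass with an adjusted p of 0.073. It passed without PC3 vehicle replicate 1 (-0.50, adjusted p 0.0086) and with scaling by library size alone (-0.47, adjusted p 0.034). Exons of BCL2L11 share 727 bases with MIR4435-2HG on the other strand, a gene with 394 to 515 counts, and whether counting used strand is not given in the sources used here.

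BIK and BMF were close to the limit of what these libraries can show. BIK (ENSG00000100290, chr22:43110748-43129712, plus strand), a BH3-only protein of the endoplasmic reticulum, had 0, 2 and 4 counts in PC3 vehicle, 4, 0 and 2 in PC3 pentamidine, 4, 7 and 6 in DU145 vehicle and 15, 7 and 12 in DU145 pentamidine. It was not tested in any comparison. The summed counts of BIK in the DU145-labelled libraries, 17 and 34, had a ratio of 1.96 with a counting interval of 1.06 to 3.74, and without the filter the log2 fold change was 0.96 with an adjusted p of 0.25 (edgeR). BMF (ENSG00000104081, chr15:40087890-40108892, minus strand), known to be held at the cytoskeleton, had 6, 3 and 4 counts in PC3 vehicle and 8, 6 and 9 in PC3 pentamidine. Its summed counts in the PC3-labelled libraries, 13 and 23, gave a ratio of 1.77 with a counting interval of 0.861 to 3.81. BMF had 15, 17 and 26 counts with vehicle and 23, 26 and 45 with pentamidine in the DU145-labelled libraries, which overlap. Its log2 fold change there was 0.67 (95% interval 0.055 to 1.28, adjusted p 0.085, edgeR), and leaving out 1 sample moved it between 0.31 (without DU145 pentamidine replicate 3, adjusted p 0.55) and 0.91 (without DU145 vehicle replicate 3, adjusted p 0.052). It passed only without DU145 pentamidine replicate 1 (0.83, adjusted p 0.045).

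BID and BAD are the members known for activation after translation. BID (ENSG00000015475, chr22:17734138-17774770, minus strand) links death receptors to mitochondria once caspase-8 has cut it. It was at 42.4, 44.9 and 43.1 CPM in PC3 vehicle and 39.9, 33.4 and 31.3 CPM in PC3 pentamidine, without overlap. Under the DU145 label it was at 39.9, 42.0 and 39.3 CPM with vehicle and 39.6, 33.8 and 28.2 CPM with pentamidine, where the highest pentamidine sample overlapped with vehicle. BID fell by 0.31 in the PC3-labelled libraries (log2, SE 0.084, adjusted p 0.0062, edgeR) and by 0.25 in the DU145-labelled ones (log2, SE 0.075, adjusted p 0.0067, edgeR). The call under the DU145 label rested on DU145 pentamidine replicate 3, without which the log2 fold change was -0.14 with an adjusted p of 0.16, and it did not pass with limma on log2(CPM + 1) (-0.21, adjusted p 0.25). BAD (ENSG00000002330, chr11:64269830-64284704, minus strand), which sequesters antiapoptotic members when it is not phosphorylated, was at 4.34, 7.52 and 5.97 CPM in PC3 vehicle and 6.89, 6.40 and 5.74 CPM in PC3 pentamidine. Under the DU145 label BAD was at 6.94, 8.90 and 6.95 CPM with vehicle and 10.2, 9.44 and 8.34 CPM with pentamidine. Its log2 fold change of 0.095 (95% interval -0.30 to 0.49, adjusted p 0.71) under the PC3 label and 0.30 (95% interval 0.028 to 0.57, adjusted p 0.081) under the DU145 label did not pass. Under the PC3 label it was -0.096 without PC3 vehicle replicate 1, and under the DU145 label it passed without DU145 vehicle replicate 2 (0.43, adjusted p 0.025). The exons of BAD share 404 bases with GPR137 on the other strand, which had 634 to 1103 counts.

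Of the pore-forming effectors, BAK1 passed a test and BAX did not. BAX (ENSG00000087088, chr19:48954815-48961798, plus strand) waits in the cytosol and moves to mitochondria when activated. It was at 59.0, 61.8 and 69.0 CPM in PC3 vehicle and 58.5, 62.6 and 55.9 CPM in PC3 pentamidine, and at 73.6, 78.4 and 70.7 CPM in DU145 vehicle and 77.2, 78.5 and 75.0 CPM in DU145 pentamidine. Vehicle and pentamidine samples overlapped under both labels. The log2 fold change of BAX was -0.095 (95% interval -0.25 to 0.057, adjusted p 0.31) and 0.056 (95% interval -0.042 to 0.15, adjusted p 0.41), so a rise above 0.15 or a fall of more than 0.25 lay outside both intervals. DU145 is known for a frameshift in BAX, which a count per gene does not show.

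BAK1 (ENSG00000030110, chr6:33572547-33580293, minus strand) encodes the effector that sits in the outer mitochondrial membrane already in healthy cells. Under the PC3 label it was at 30.2, 31.9 and 32.5 CPM with vehicle and 33.8, 36.4 and 32.8 CPM with pentamidine. Under the DU145 label it was at 35.7, 37.3 and 36.2 CPM with vehicle and 30.2, 30.7 and 32.3 CPM with pentamidine. The pentamidine samples were all above vehicle under the PC3 label and all below it under the DU145 label. BAK1 fell by 0.22 in the DU145-labelled libraries (log2, SE 0.067, adjusted p 0.0070, edgeR; 0.051 with limma on log2(CPM + 1)), and its log2 fold change in the PC3-labelled ones was 0.13 (95% interval -0.031 to 0.29, adjusted p 0.19). The difference between these responses was 0.35 (SE 0.096, 95% interval 0.15 to 0.55, adjusted p 0.0089, edgeR interaction term).

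**Figure D3:**
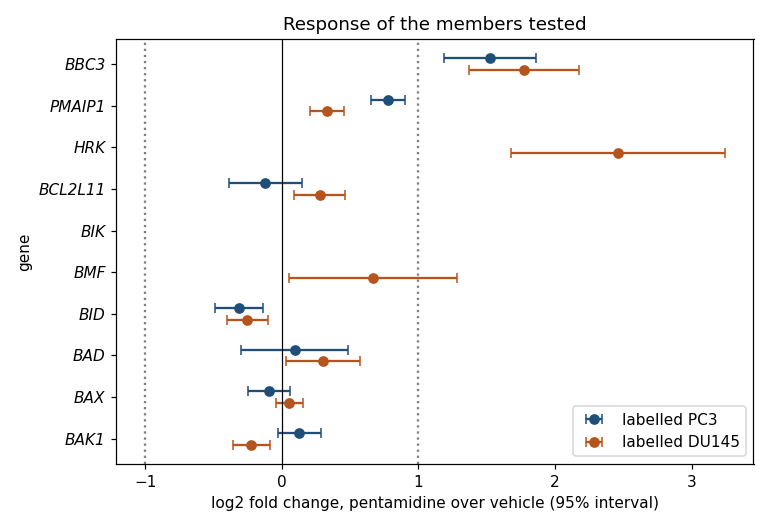
Log2 fold change, pentamidine over vehicle, of the members tested under each label (points) with 95% intervals (bars); dotted lines mark 1 and -1, and members without a point were removed by the filter on low counts. BBC3 lies at 1.52 and 1.77, PMAIP1 at 0.78 and 0.33, and the points of BAK1 lie on opposite sides of 0.

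In the make-up of the pro-apoptotic mRNA pool, the summed CPM per kb of the 10 members, PMAIP1 made up 33.1% ± 1.73 in PC3 vehicle and 45.8% ± 1.26 in PC3 pentamidine (SD, n = 3). In the DU145-labelled libraries it made up 20.8% ± 0.479 and 24.4% ± 0.592. BBC3 went from 1.25% ± 0.165 to 2.92% ± 0.363 of the pool under the PC3 label and from 0.814% ± 0.233 to 2.63% ± 0.195 under the DU145 label. BAX and PMAIP1 were the largest parts in every group but DU145 vehicle, where BAX at 36.4% ± 0.604 was followed by BAK1 at 20.9% ± 0.489 and PMAIP1 within the spread of each other. HRK made up 0.133% ± 0.0599 and 0.393% ± 0.154 of the pool after pentamidine. These shares are descriptions without a test, share a common sum, and depend on the annotated exon lengths.

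**Figure D4:**
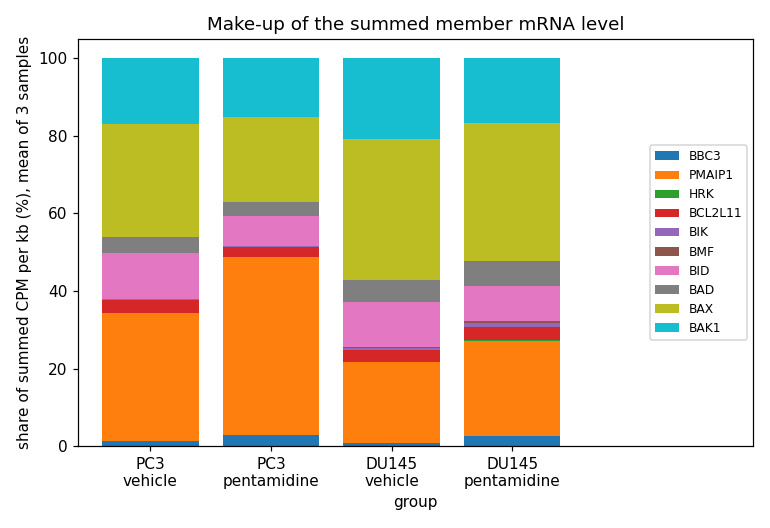
Share of each member in the summed CPM per kb of the 10 members (percent, mean of 3 samples) in the 4 groups. PMAIP1, BAX, BAK1 and BID make up most of every bar, and the PMAIP1 part goes from 33.1% to 45.8% under the PC3 label.

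Among the proteins that the members bind, the antiapoptotic list had 5 of 6 genes tested under each label. Under the PC3 label all 5 tested changed, 4 upwards and 1 downwards, with a median log2 fold change of 0.30 (43.4% of all genes changed, with a median of 0.0046). In the DU145-labelled libraries 2 of 5 changed, 1 in each direction, with a median of 0.063 (34.0% of all genes, median 0.0085). BCL2A1, a short-lived protein that binds BIM and PUMA, fell by 0.92 (log2, SE 0.34, adjusted p 0.035) under the PC3 label and by 2.85 (log2, SE 0.16, adjusted p 2.1e-21) under the DU145 label, and the responses differed by 1.92 (adjusted p 0.00076, edgeR). Its counts under the PC3 label were low already with vehicle, at 21 to 53 per sample, and 16 to 18 with pentamidine. Mean levels were 2.26 and 1.19 CPM there, against 16.5 and 2.28 CPM under the DU145 label. Of the genes outside the naming rule, named here after their values were seen, BCL2L1 (BCL-XL) rose by 0.62 and 0.31 (adjusted p 1.5e-06 and 8.6e-07). MCL1, the partner of NOXA, rose by 0.30 under the PC3 label (adjusted p 6.1e-05) and had a log2 fold change of 0.063 under the DU145 label (adjusted p 0.11). BCL2L2 (BCL-W) rose by 0.62 and BCL2 by 0.27 under the PC3 label (adjusted p 7.4e-06 and 0.011), with log2 fold changes of 0.10 and -0.018 under the DU145 label (adjusted p 0.36 and 0.92).

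Other BCL2-related genes gave 4 of 5 tested changed in the PC3-labelled libraries, 2 in each direction, and 3 of 5 in the DU145-labelled ones, 1 upwards and 2 downwards, with medians of 0.032 and -0.062 (43.4% and 34.0% of all genes changed). BNIP3L, a receptor for the removal of mitochondria by autophagy, rose by 0.53 and 0.18 (log2, adjusted p 1.1e-06 and 0.0049, edgeR). BCL2L12 had log2 fold changes of -0.37 and -0.15 (adjusted p 0.0016 and 0.013), a fall under both labels. Of the genes for partners and modifiers of the members, such as VDAC2, CASP8 and AKT1, 4 of 11 changed under the PC3 label, 3 upwards and 1 downwards, and 2 of 11 under the DU145 label, 1 in each direction, with medians of 0.042 and -0.026 (43.4% and 34.0% of all genes changed). PIM1, a kinase of BAD, had log2 fold changes of -0.046 and 0.26 (adjusted p 0.83 and 0.17), and MAPK8 (JNK1) rose by 0.23 under the PC3 label (adjusted p 0.0069) with -0.066 under the DU145 label (adjusted p 0.36). DYNLL2, the dynein light chain known to hold BMF, was among the risers under both labels (0.20 and 0.14, adjusted p 0.011 and 0.041, named after its values were seen).

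Of the genes for steps after pore formation, 7 of 11 changed in the PC3-labelled libraries, 2 upwards and 5 downwards (median -0.075, where 43.4% of all genes changed, 21.7% in each direction). In the DU145-labelled ones 5 of 11 changed, 1 upwards and 4 downwards (median -0.096, where 34.0% of all genes changed, 17.2% upwards and 16.8% downwards). APAF1, the scaffold of the apoptosome, fell by 0.51 (log2, SE 0.073, adjusted p 2.6e-05) under the PC3 label and by 0.16 (log2, SE 0.063, adjusted p 0.044) under the DU145 label. CASP9, the caspase that the apoptosome activates, rose by 0.36 and 0.48 (adjusted p 0.0019 and 0.0026, named after its values were seen).

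Transcription factors known to act on member genes changed in 9 of 10 tested cases under the PC3 label, 7 upwards and 2 downwards with 4 past a log2 fold change of 1, and in 7 of 10 under the DU145 label, 6 upwards and 1 downwards with 2 past it. Of all genes, 43.4% and 34.0% changed and 4.75% and 2.03% passed that fold. The medians were 0.78 and 0.26. Within this list the largest rises were in factors of the stress response. ATF3 rose by 3.79 and 2.41 (log2, SE 0.14 and 0.27, adjusted p 5.7e-13 and 2.2e-10, edgeR), DDIT3 (CHOP) by 2.74 and 1.27 (SE 0.15 and 0.13, adjusted p 2.4e-10 and 1.6e-11), CEBPB by 1.38 and 0.69 (SE 0.16 and 0.065, adjusted p 3.0e-06 and 1.3e-12) and ATF4 by 1.13 and 0.97 (SE 0.053 and 0.032, adjusted p 2.3e-11 and 1.1e-31). The factors that fell, named after their values were seen, were E2F1 and TP73 under the PC3 label (-0.67 and -0.93) and JUN under the DU145 label (-0.24). The response under the PC3 label was larger for DDIT3 by 1.47 (adjusted p 9.1e-06), ATF3 by 1.39 (adjusted p 0.0039) and CEBPB by 0.69 (adjusted p 0.014). For ATF4 the difference of 0.16 did not pass (adjusted p 0.072), and for E2F1 and TP73 the difference, PC3 minus DU145, was -0.76 and -1.07 (adjusted p 2.0e-09 and 3.0e-06). Of the p53 target genes outside the BCL2 family, 5 of 11 changed under the PC3 label, 2 upwards and 3 downwards (median -0.12), and 6 of 12 under the DU145 label, 4 upwards and 2 downwards (median 0.075), where 43.4% and 34.0% of all genes changed. TP53INP1, which promotes autophagy and cell death, rose by 1.02 and 0.99 (log2, SE 0.15 and 0.17, adjusted p 4.3e-05 and 5.3e-06). Any part of these factors in the changes of BBC3, PMAIP1 and HRK was not tested.

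**Figure D5:**
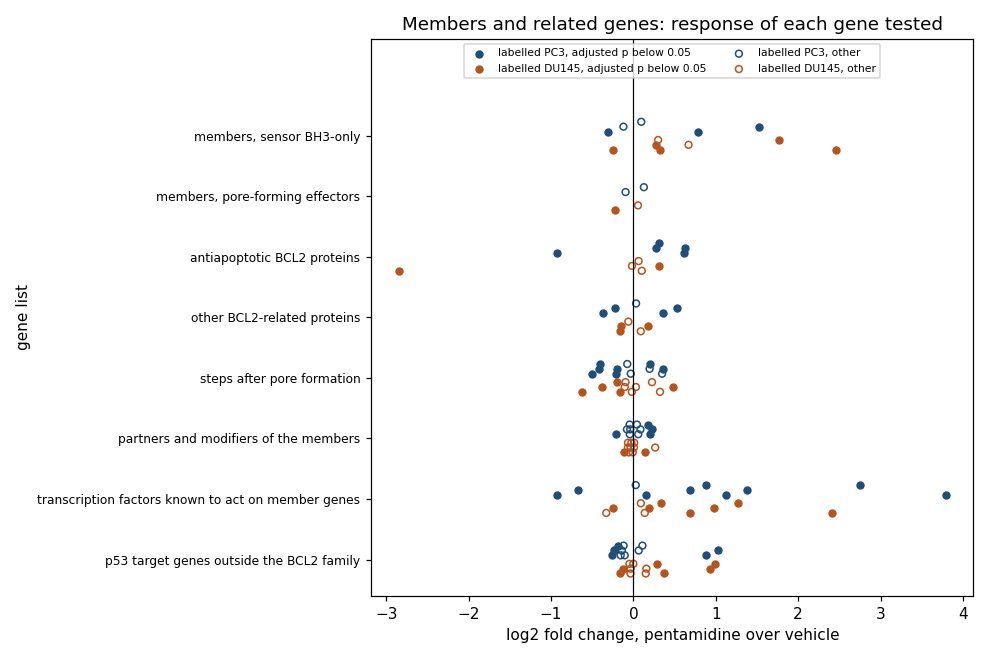
Log2 fold change, pentamidine over vehicle, of each gene tested in the members and 6 related lists under each label; filled points had an adjusted p below 0.05 (edgeR), and points are offset upwards or downwards only to keep them apart. ATF3 under the PC3 label, at 3.79, is the point farthest to the right, and BCL2A1 under the DU145 label, at -2.85, the one farthest to the left.

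Genes with the profile most like that of a member over the 12 samples were found by the root mean square difference of centred log2(CPM + 0.5) values among 13461 genes, as a description, since all 12 samples share the 4 groups and their libraries. Nearest to BBC3, whose own values spread by 0.81, were SLC48A1, a heme transporter, at 0.25, PHGDH, the entry enzyme of serine synthesis, at 0.30 and GPT2, the mitochondrial alanine aminotransferase, at 0.30. Nearest to PMAIP1 (own spread 0.57) were ALKBH3, a DNA repair demethylase, at 0.090, SLC38A2, a transporter of neutral amino acids, at 0.096 and RHBDD1, a rhomboid protease, at 0.097. BAX (own spread 0.17) was nearest to MDH1, SPCS1 and CHCHD4 at 0.044, 0.054 and 0.056, and BAK1 (own spread 0.10) to KPNA4, DDX27 and POLG2 at 0.044, 0.051 and 0.057. For BID the nearest were OSTC, MSRB1 and RRP1 at 0.083, 0.091 and 0.095, and for BMF they were IDH2, CCDC92 and BTBD2 at 0.21, 0.22 and 0.22. BCL2L11 had RELL2 and ARHGEF7 among its nearest, both at 0.12, not far below its own spread of 0.17, and BAD had CTSD, RPL7P19 and RPL26 at 0.11, 0.11 and 0.13. HRK and BIK, with a mean below 1 CPM, were not compared in this way.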

How the data were processed

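The authors enriched mRNA with Oligo(dT) beads, sequenced paired ends and aligned reads with HISAT2 (version 2.1.0 in the submitters' processing notes, which also name GRCh38 and DESeq 1.18.1). The counting program, its annotation and its use of strand are not given in the sources used here. The deposited table holds raw counts per gene, without normalization. Its 33595 entries were merged to 32077 genes where a name was repeated with the same counts. A deposited table named for FPKM and the authors' tables of fold changes and p-values were not used.

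The counts were tested with edgeR 4.0.16 in R 4.3.3 (quasi-likelihood test, TMM normalization, filterByExpr with a minimum count of 10, Benjamini-Hochberg adjustment over all genes tested), in each line with its 6 samples, between the vehicle groups, and as an interaction over all 12 samples. Intervals of 95% use the moderated degrees of freedom. Members and lists were chosen with earlier results of these data known, and BBC3 and HRK are among the genes that the study itself picked from these libraries. All 10 members are named, and of each related list the genes past an adjusted p of 0.05 and a log2 fold change of 1 in size in either line or, where there were none, the 2 with the largest change. Exon lengths came from GENCODE, in which all 10 members had the same position. Alternatives were DESeq2 1.42.0, limma 3.58.1 on log2(CPM + 1), RLE or library-size scaling, TMM without mitochondria-encoded genes, other filters, a replicate block, one fit of all 12 samples and each sample left out in turn. Replicates of each group differed beyond sampling noise. The mean chi-square per gene was 3.64 to 7.30 in PC3 vehicle and 1.72 to 3.13 in the other groups. The highest values, 5.98 and 7.30, were those of PC3 vehicle replicate 1 against replicates 2 and 3. Intervals on summed counts cover counting error only, because the reads carry no molecular identifiers. TMPRSS2, CD3E and KDR, listed as markers, were not analysed here, and a few other genes are not reported here.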

Additional observations from a re-analysis of the deposited data

Results flagged for a closer look

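The response to pentamidine differed between the labels for 2 of the 9 members tested with the interaction term, near the 20.4% of all genes for which it did. For PMAIP1 the PC3-labelled response was larger by 0.45 on the log2 scale, and its adjusted p ranged from 1.3e-05 to 0.0078 over 20 alternatives. For BAK1 the responses had opposite signs, 0.13 under the PC3 label, which did not pass, and -0.22 under the DU145 label, and their signed difference, PC3 minus DU145, was 0.35, with adjusted p from 0.0065 to 0.034 over 20 alternatives. No group had enough samples for a test of single outlying libraries.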

How the results depend on the processing

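With a log2 fold change above 1 in size required as well, fewer members were called. These were 1 of 7 in the PC3-labelled libraries (4.75% of all genes) and 2 of 9 in the DU145-labelled ones (2.03%). In the interaction they were 0 of 9 (2.62% of all genes), and between the vehicle groups 1 of 8 (19.2%). HRK and BMF, which passed the filter only through their higher group and so had to differ, are among these calls. Without HRK the DU145-labelled count was 1 of 8, and without BMF that between the vehicle groups was 0 of 7. Leaving out 1 sample at a time gave 3 to 4, 4 to 7, 2 to 3 and 4 to 6. The DU145-labelled counts still include HRK, and those between the vehicle groups BMF. Of all genes, the same fits called 4866 to 6180 of 14159 to 14237 under the PC3 label. Under the DU145 label they called 4051 to 4421 of 14594 to 14679. For the interaction it was 2644 to 3268 of 15580 to 15653, and between the vehicle groups 8777 to 9671 of 14722 to 14785. The set of members that passed the filter on low counts could change with the sample left out. In the PC3-labelled libraries the 7 members of the main test kept their calls throughout. A count of 4 there thus includes a member that the main filter had removed. Of 526 alternatives over 33 results of single members, 489 kept direction and call, 19 lost a call, 8 gained one and 10 changed sign, none of these for a value that had passed. On log2(CPM + 1) with limma, the interaction was -0.39 for HRK and -0.21 for BMF. With a sample left out, values ranged over both signs for BAD (-0.096 to 0.31) and BCL2L11 (-0.23 to 0.023) under the PC3 label and in the interaction for BMF (-0.097 to 0.49), BAD (-0.39 to 0.015) and BID (-0.18 to 0.063). The cause was not tested. BAD under the DU145 label passed with scaling by library size alone (0.35, adjusted p 0.039).

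Replicate numbers did not pair the samples: same-numbered deviations correlated between -0.073 and 0.026 within a line, and 1 of 12 samples correlated best with its own number. With the replicate block the members called were 3 of 7, 6 of 9, 2 of 9 and 7 of 8, where the 6 include HRK and the 7 BMF. The added call was the BAD difference between vehicle groups (-0.39, adjusted p 0.042, edgeR). Of all genes, 5599 of 13861, 4794 of 14313, 2803 of 15226 and 9430 of 14394 were called. At these depths HRK, BIK and BMF could not be measured precisely.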
